A study of Homo sapiens with 15 samples.

Results

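The genes described here are the ZNF zinc finger genes of human chromosome 19. They were taken as every array probe whose gene name begins with ZNF and a digit and whose mapped position lies on chromosome 19. This gave 337 probes for 210 genes, out of 41000 probes and 30484 gene names on the array. Of the 210 names, 201 are current RefSeq symbols and 9 are older names, such as ZNF342 for ZNF296. This rule uses name and position only, though the genes were taken up with earlier results of these data known. The cells were A549, an established human lung adenocarcinoma line. The miRNAs were miR-766, miR-629*, miR-565, miR-181d and miR-574-3p. For each of them, cells given 20 nM of the synthetic miRNA (the overexpressing cells) were compared, 24 h after transfection, with cells given 20 nM of a locked nucleic acid antagomir against the same miRNA (the knocked-down cells). Each array held both RNAs, with the overexpressing cells labelled with Cy5 and the knocked-down cells with Cy3, and there were 3 arrays for each miRNA, 15 in all. No array had the dyes exchanged, and no untreated cells were hybridised, so a ratio that departs from 0 on the log2 scale cannot be told apart from a dye difference of the probe. The labels do not say that the 3 arrays of a miRNA came from separate transfections, and p-values therefore measure only the spread between arrays.

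C2H2 zinc finger proteins bind DNA through tandem fingers, each folded around a zinc ion. Many of those encoded on chromosome 19 also carry a KRAB domain, which recruits TRIM28 and, with it, the histone methyltransferase SETDB1, so that the bound region, often a transposable element, is silenced. The genes lie in clusters that grew by repeated duplication, and much of each finger is encoded by closely similar letters in gene after gene. The seed of the miR-181 family, the bases of a miRNA that choose its targets, matches letters in this repeated coding sequence, and the family has been reported to act on zinc finger genes there.

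The mature sequences of miR-181d and miR-574-3p are shown because the comparisons below turn on these miRNAs, and miR-181a and miR-181c are shown because they share the miR-181d seed. Capitals mark the seed, bases 2 to 8 counted from the 5′ end. The sequences are from RefSeq (GRCh38.p14). The gene of miR-181d is itself on chromosome 19, at chr19:13874910-13874932 on the plus strand for the mature form, and that of miR-574-3p is at chr4:38868092-38868113 on the plus strand.
hsa-miR-181d-5p: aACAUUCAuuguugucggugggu
hsa-miR-181a-5p: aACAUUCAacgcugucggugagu
hsa-miR-181c-5p: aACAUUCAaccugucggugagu
hsa-miR-574-3p: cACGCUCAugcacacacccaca
The first 3 share the seed ACAUUCA, which 5 of 2370 mature names in the RefSeq table carry. The seed of miR-574-3p was carried by no other name.

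Read as DNA on the opposite strand, bases 2 to 7 of the miR-181d seed match the letters GAATGT. The next sequences are 30-base windows from probes of member genes that hold GAATGT, or GAATGC, which differs from it in the last letter. The first 4 are shown because they lay among the lowest members on the array that stands apart in the results, and ZNF585B because it recurs in the results for miR-574-3p. Capitals mark the 6 letters searched, and positions are those of the whole 60-base probe in NCBI36.
ZNF738, chr19:21358963-21359022, plus strand: tacaagtgtgaaGAATGTggcaaagccttt
ZNF708, chr19:21268821-21268880, minus strand: tacaaatgtgaaGAATGTggcaaagctttt
ZNF254, chr19:24101922-24101981, plus strand: tacaagtgtgaaGAATGCggcaaagcgttt
ZNF675, chr19:23628674-23628733, minus strand: tacaaatgtgaaGAATGCggcaaagcctct
ZNF585B, chr19:42368259-42368318, minus strand: tacatttgttctGAATGTgggaagaccttt
The letters GAATGT, searched only in the direction of the probe sequence as given in the files, occurred in 44 of the 337 member probes (13.1%), in 23 of 377 probes for ZNF genes of other chromosomes (6.10%) and in 1025 of all 41000 probes (2.50%). GAATGC occurred in 9 member probes (2.67%) and in 542 of all probes (1.32%). The 7-letter match to the whole seed, TGAATGT, which contains GAATGT, occurred in 16 member probes (4.75%) and in 366 of all probes (0.893%). A match to these letters in a probe is a description of its sequence and does not show a bound site.

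The values are the scanner software's dye-normalized signals, given as arbitrary fluorescence units, and their log2 Cy5/Cy3 ratio. Probes entered the test where 3 or more arrays held them well above background in Cy5 or in Cy3. This held for 31345 probes, among them 247 member probes of 167 genes. The other 90 member probes could not be tested, and 78 of these were above background on no array, so 43 of the 210 genes, ZNF93 with its 4 probes among them, have no measured value here. Mean log2 signals of the tested members ran from 1.82 to 15.54 with a median of 6.46. The epithelial markers KRT18, KRT8, KRT19, CDH1 and TACSTD1 (EPCAM) were above background in both channels on all 15 arrays, while PTPRC, COL3A1, PDGFRB, PECAM1 and CDH5 were above it on none; COL1A1 and a probe for CD3E were above it on all 15, at median Cy3 signals of 37.3 and 39.1. The arrays lie on 4 slides: slide 1 holds the 3 arrays of miR-181d and replicate 1 of miR-565, slide 2 the other miR-565 arrays and replicates 1 and 2 of miR-574-3p, slide 3 replicate 3 of miR-574-3p and the 3 arrays of miR-629*, and slide 4 those of miR-766.

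The array labelled miR-565 replicate 1 stood apart from the other 14 over all tested probes, and in the zinc finger genes its ratios lay lower. Over all tested probes the standard deviation of its log2 ratios was 0.94, against 0.29 to 0.53 on the other 14 arrays. Whether this array holds the RNAs that its label names could not be checked here, so its label is kept as given, and each value for miR-565 and each difference from the other miRNAs that includes it rests on that label. The median log2 ratio of the 247 members on it was -0.68 (quartiles -1.50 and 0.03), against -0.04 to 0.06 on the other 14 arrays. On the same array the median was -0.11 over 342 tested probes of ZNF genes on other chromosomes, 0.45 over the other tested chromosome 19 probes and 0.14 over all tested probes. For 152 members (61.5%) this array held the lowest ratio of the 15, where the share was 43.9% over the ZNF probes of other chromosomes and 28.0% over all probes, and for 44 members (17.8%) it held the highest, where the share over all probes was 40.2%. A ratio below -1 was seen for 98 members on it (39.7%, beside 28.1% of the ZNF probes of other chromosomes and 14.6% of all probes), of which 35 were not above background in Cy5, so that their ratios rest on a bound. A ratio above 1 was seen for 5 members (5.96% of all probes). By gene, taking the brightest probe, 104 of 167 genes were lowest on this array, and 84 of the 144 genes above background in both channels on it. Among the 61 genes with several tested probes, 28 had every probe lowest on this array and 15 had none.

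**Figure D1:**
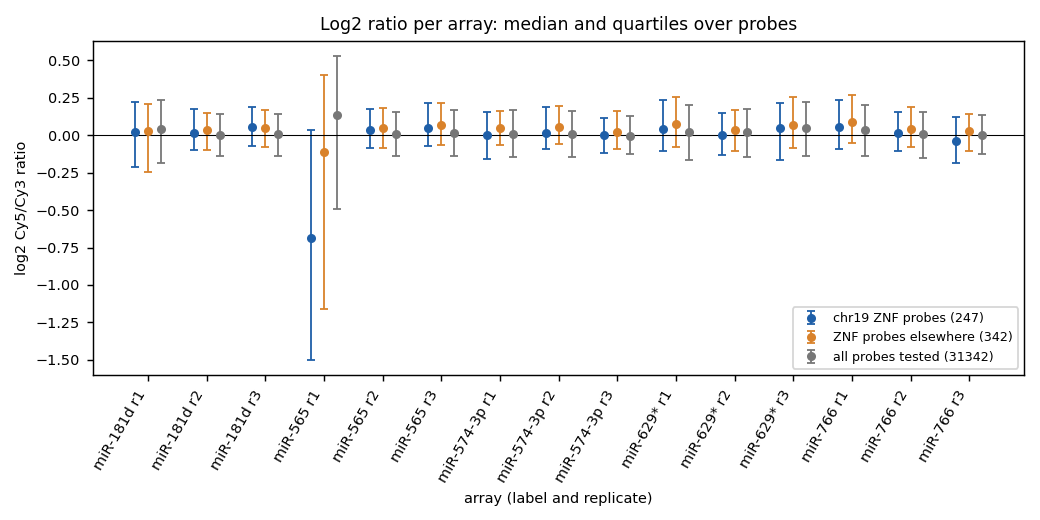
Log2 Cy5/Cy3 ratio (vertical axis) on each of the 15 arrays (horizontal axis, label and replicate) as median (points) and quartiles (bars) over the 247 chromosome 19 ZNF probes (blue), 342 ZNF probes elsewhere (orange) and all tested probes (grey, up to 31342 with a ratio). The medians of the members lie between -0.04 and 0.06 on 14 arrays and at -0.68 on the array labelled miR-565 replicate 1.

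The difference lay in the Cy5 channel, the overexpressing cells. On this array 157 members (63.6%) had their lowest quantile-normalized Cy5 signal of the 15, where the share over all probes was 27.8%, and 6 had their lowest Cy3 signal (3.85% of all probes). The median deviation of the members from their mean over the other arrays was -0.67 in Cy5 and -0.01 in Cy3 (log2). Well above background in Cy5 were 80.6% of the members here, and 88.9% of all tested probes.

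**Figure D2:**
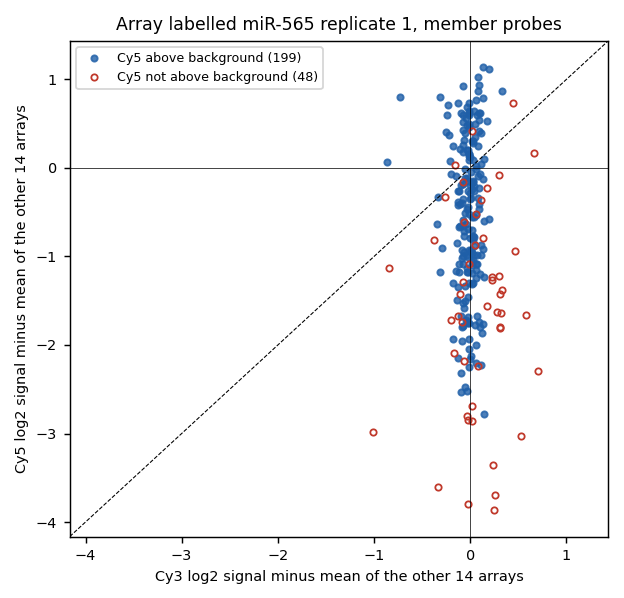
Quantile-normalized log2 signal on the array labelled miR-565 replicate 1 minus the mean of the other 14 arrays, Cy5 (vertical axis) against Cy3 (horizontal axis), for the 247 tested chromosome 19 ZNF probes; filled points were above background in Cy5 there (199) and open points were not (48), and the dashed line marks equal change. The points spread downwards in Cy5, with a median of -0.67, and stay about 0 in Cy3, with a median of -0.01.

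The members lowest on it with signals above background in both channels were ZNF181, ZNF14, ZNF761, ZNF302, ZNF738, ZNF254, ZNF675 and ZNF708, chosen after their values were seen. ZNF181 had a log2 ratio of -2.83 against -0.01 to 0.54 on the other 14 arrays, with a Cy5 signal of 13.7 against 67.2 to 115 and a Cy3 signal of 97.3 against 50.5 to 96.6. ZNF302 had a ratio of -2.52 against -0.13 to 0.16, with Cy5 at 123 against 486 to 768 and Cy3 at 704 against 489 to 710. ZNF14 had -2.55 against -0.03 to 0.26. For these genes the Cy5 signal of this array was below all 14 others and the Cy3 signal was at or near the upper end of theirs. The 3 probes of ZNF761 had -2.55, -2.62 and -2.29, and the 3 tested probes of ZNF254 had -2.43, -1.82 and -2.49, so several probes of 1 gene were low. The ratios of -2.29 and -1.82 rest on Cy5 signals, 5.20 and 8.44, that were not above background on this array, and are bounds. ZNF91, which represses SVA retrotransposons, had the ratio -3.56, but its Cy5 signal of 2.23 was not above background, while it was 10.5 to 29.3 on the other arrays.

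Members with known roles lay at different places in this range. ZNF146, a protein made up almost wholly of fingers, had -1.51 and -1.25 for its 2 tested probes. ZNF350 (ZBRK1), a repressor that works with BRCA1, had -1.47. ZNF331, an imprinted gene, had -0.59 and -1.06. ZNF224, a repressor of aldolase A, had -0.99 for its brightest probe, below the -0.34 to 0.21 of the other arrays. A dimmer probe, above background in Cy3 on 13 of the 15 arrays, had 1.41, within the -0.37 to 1.54 of the others. ZNF274, which brings SETDB1 to the 3′ ends of other zinc finger genes, had 0.02, within the -0.16 to 0.22 of the other arrays.

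Some members were higher on this array. Strongly lit probes were among them: ZNF579 had a Cy5 signal of 79284 there against 36010 to 51514 on the others, with a ratio of 0.42 against -0.31 to 0.25, and ZNF444 had 5591 against 2547 to 3612, with a ratio of 0.37 against -0.19 to -0.03. ZNF525 had 0.22 against -0.13 to 0.18, while another of its probes was lower, at -2.59 against -0.00 to 0.82. That ratio is a bound, since its Cy5 signal of 2.09 was not above background there. ZNF329 had 1.57 against -0.71 to 0.86, with a Cy5 signal of 55.3 against 16.5 to 42.1. ZNF575, among the brighter members, had 0.89 against -0.26 to 0.47, with Cy5 at 12283 against 4755 to 6575, and ZNF628 had 0.92 against -0.22 to 0.10, with Cy5 at 1756 against 546 to 804. For these genes Cy3 stayed within the range of the other arrays or, for ZNF628 (930 against 551 to 865), slightly over it.

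The position on the chromosome went with the size of the difference. With a gap of 1000000 bases taken to part clusters, the member probes fell into 16 clusters, 15 of which had tested probes. In the cluster from ZNF101 to ZNF254 (NCBI36 chr19:19651730-24102686), which holds 33 tested probes, the median on this array was -1.89, 27 probes were lowest of the 15 arrays and 24 were below -1. In the cluster from ZNF175 to ZNF331 (chr19:56769168-58773188), with 37 tested probes, the median was -1.63 and 34 probes were lowest. In the cluster from ZNF628 to ZNF446 (chr19:60687508-63684336), near the end of the long arm, with 62 tested probes, the median was 0.12, 12 probes were lowest and 1 was below -1. Other large clusters lay at -0.93 over 32 probes (ZNF575 to ZNF342), -0.90 over 21 probes (ZNF565 to ZNF573) and -0.27 over 20 probes (ZNF557 to ZNF562). Neighbouring probes share finger sequences and, in part, genes, so clusters are described and not tested.

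**Figure D3:**
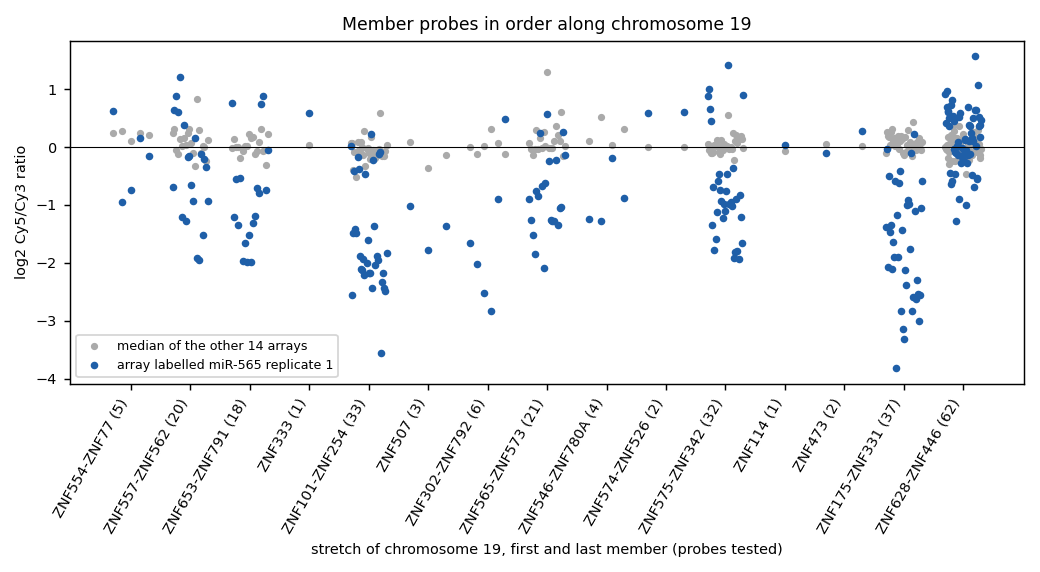
Log2 Cy5/Cy3 ratio (vertical axis) of each tested chromosome 19 ZNF probe in order along the chromosome, set out by cluster (horizontal axis, with the number of probes), on the array labelled miR-565 replicate 1 (blue) and as the median of the other 14 arrays (grey). The cluster from ZNF101 to ZNF254 has a median of -1.89 on that array and the cluster from ZNF628 to ZNF446 one of 0.12.

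The difference also went with the letters in the probe. On this array the 30 tested members with GAATGT had a median ratio of -1.47, and 28 of them were lowest of the 15 arrays; the 9 with GAATGC had -1.76, and the members without GAATGT had -0.55. The 10 tested members with the longer TGAATGT had -1.27. Among ZNF probes of other chromosomes, those with GAATGT had -1.43 (16 of 21 lowest) and those without it -0.04. Among the 710 tested probes of other genes that hold GAATGT the median was 0.06, against 0.15 without it. A 14-letter consensus of the linker between fingers, which does not contain GAATGT or GAATGC, was searched in the same direction and occurred in 3.26% of member probes and 0.0488% of all probes. The 8 tested members that hold it, 5 of which also hold GAATGT or GAATGC, had a median of -1.89, and all 8 were lowest. The 4 such ZNF probes of other chromosomes had -1.77, and the 3 such probes of other genes had -2.14. In ZNF probes low ratios thus went with the linker letters and with GAATGC as well as with GAATGT. The deviation of the members with GAATGT was -1.38 in Cy5 and 0.01 in Cy3. On the 3 miR-181d arrays the same members had medians of -0.15, 0.04 and 0.03.

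Probe base composition moved with the array as well. Over all tested probes the correlation of the log2 ratio with the G+C content of the probe was 0.26 on this array and -0.28 to 0.03 on the others. The members' median G+C content was 41.7%. Among probes above 35 and up to 40% G+C, the 77 members had a median of -1.11, against -0.07 over all probes, and 76.6% were lowest of the 15 arrays, against 39.1%. Above 40 and up to 45%, the 98 members had -0.68 against 0.06. Above 45% the 30 members had 0.60 against 0.43, and 10% of them were lowest, against 5.62%. The members were thus lower than all probes in the bins up to 45% G+C and not in the bin above it. The part that base composition, the hybridisation or the RNA of this array has in these values was not tested.

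Over all tested probes the ratios of this array correlated with those of each other array at r = 0.01 to 0.46, within the -0.08 to 0.73 of the other 14 arrays among themselves. Over the members the range was -0.16 to 0.18, and 0.02 to 0.69 among the other 14. These correlations run across probes, which are not replicates. The array shares slide 1 with the 3 miR-181d arrays, and the mean of those 3 minus this array had a median of 0.72 over the members and -0.13 over all probes. Counts of members below are therefore also given without this array, a setting chosen after the data were seen.

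In miR-181d the ratios of the zinc finger genes lay close to 0. The median log2 ratio over the members was 0.03, beside 0.01 over all probes, and the medians of the 3 arrays were 0.02, 0.02 and 0.06. With the slide as a random block the members' median was 0.39, beside -0.02 over all probes, which is above the medians of all 3 arrays. With the block but without the array that stands apart, which shares slide 1 with these arrays alone, it was 0.03, beside 0.01. Without a block, the members' median turned to -0.017 with no filter on dim probes and to -0.00062 with normexp and loess. The ratio of 162 of the 167 genes lay within 0.5 of 0 on the log2 scale. In limma's moderated test, 1 member probe was lower and 4 were higher at an adjusted p under 0.05, where 2.86% of all probes were lower and 3.41% higher. Without the array that stands apart the counts were 17 lower and 33 higher, beside 12.8% and 15.3% of all probes.

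The 3 miR-181d arrays were not alike in these genes. Among the 14 arrays other than the one that stands apart, miR-181d replicate 1 held the lowest ratio for 50 of the 247 members (20.2%), where it did so for 13.6% of all probes; replicate 2 did so for 18 members (7.29%, beside 6.24% of all probes) and replicate 3 for 7 (2.83%, beside 6.03%). In the cluster from ZNF101 to ZNF254 replicate 1 was lowest for 16 of 33 probes, and the medians of the 3 arrays there were -0.27, -0.02 and 0.06. ZNF708 had -0.53, -0.19 and 0.04 on them, and the brightest probe of ZNF254 had -0.49, -0.08 and -0.00. For both probes replicate 1 was the lowest of the 14 arrays.

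ZNF175 (OTK18), described as a repressor of HIV transcription in macrophages, had log2 ratios of 0.35, 0.29 and 0.26 on the miR-181d arrays and 0.18 to 0.40 on the others apart from -0.04 on the array labelled miR-565 replicate 1. Its mean of 0.30 differed from 0 (SE 0.07, adjusted p = 0.0291, limma). Another of its probes had -0.07, 0.17 and -0.12. ZNF77 had 0.28, 0.25 and 0.26, with -0.00 to 0.29 on the others, and a mean of 0.27 (SE 0.06, adjusted p = 0.0224, limma). Its other probe had 0.14, 0.18 and 0.21. ZNF99 had 0.98, 0.71 and 0.56, with a mean of 0.75 (SE 0.16, adjusted p = 0.0174, limma), and lay at 0.19 to 0.76 on the others apart from -0.08 on the array labelled miR-565 replicate 1. For each of these 3 genes at least 2 of the miR-181d arrays thus lay inside the range of the arrays of other miRNAs. A dimmer probe of ZNF557, named after its values were seen, had 0.46, 0.20 and 0.43, with a mean of 0.36 (SE 0.08, adjusted p = 0.0229, limma). The calls of all 4 genes were lost when any 1 of the 3 miR-181d arrays was left out, at adjusted p of 0.053 to 0.212 (limma).

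The lower probe was that of ZNF486. It was not well above background in either channel on any miR-181d array, with Cy5 signals of 1.05 to 1.43 and Cy3 signals of 3.12 to 7.37, and it entered the test through its miR-766 arrays. It has no measured ratio in miR-181d, so no size or p is given and the call says nothing of this gene.

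Setting miR-181d against the mean of the other 4 miRNAs removes what all arrays share, dye differences included. No member and no other probe passed in this comparison (0.00% of all probes, limma), and 12 member probes and 2199 of all probes had an unadjusted p under 0.05. The median difference over the members was 0.07. Without the array that stands apart it was 0.01, again with no member called, beside 0.300% of all probes lower and 0.172% higher. Among the members with the lowest p, ZNF486 was below background in both channels in 4 of the 5 miRNAs and is given no value. The others were ZNF223 (difference 0.34, adjusted p = 0.688 in limma), ZNF549 (-0.56, adjusted p = 0.69), ZNF580 (-0.23, adjusted p = 0.692) and ZNF358 (-0.43, adjusted p = 0.692). With the slide as a random block, 96 members were higher and 18 lower, beside 15.8% and 16.1% of all probes, at an estimated correlation within slides of 0.73. Without the array that stands apart this correlation was -0.20, and 12 were higher and 16 lower, beside 7.43% and 8.27%. The comparison of miR-181d with the other miRNAs thus depends on whether the slide enters as a block, with that array and without it.

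The channels were then taken apart, and each dye set against the same dye of the arrays of other miRNAs. In Cy5, the cells given miR-181d itself, no member passed (0.00% of all probes, limma), with 3 members and 1184 of all probes at an unadjusted p under 0.05. No member passed on the 14 other arrays either (0.00% of all probes). With the slide as a random block 90 members were higher and 9 lower in Cy5, beside 12.3% and 9.72% of all probes, and 30 higher and 41 lower in Cy3, beside 16.2% and 16.8%, so the outcome of both channels depends on the block. These block fits include the array that stands apart, and the channels were not fitted with the block and without that array. In Cy3, the cells given the miR-181d antagomir, 1 member was higher and none lower, beside 1.09% of all probes higher and 0.893% lower. This was ZNF580, a small C2H2 protein described in endothelial cells. Its deposited Cy3 signals were 2019, 2288 and 2294 in miR-181d and 1458 to 2477 on the other arrays. After quantile normalization they lay between 10.98 and 11.12 on the log2 scale, against 10.74 to 11.02, so the groups overlap at their edges. The difference was 0.19 (SE 0.04, adjusted p = 0.0271, limma), and the adjusted p was 0.0482 without the array that stands apart, where this was again the 1 member called, beside 0.648% of all probes higher and 0.546% lower. The call was lost without miR-181d replicate 2, without replicate 3 and with normexp signals. The mean of the other miRNAs also holds miR-574-3p, in which the Cy3 signal of ZNF580 was itself lower (-0.17, adjusted p = 0.0135, limma).

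In miR-565 the median log2 ratio over the members was -0.20 with all 3 arrays and 0.05 without replicate 1. With all 3, 8 member probes were lower and 9 higher in limma's test, beside 4.56% and 8.75% of all probes. Without replicate 1 the counts were 5 and 16, beside 7.17% and 8.71%. ZNF91 was among the lower, but through the Cy5 signal of replicate 1 that was not above background, so no mean is given with it; without replicate 1 it had -0.42 (adjusted p = 0.174, limma). On leaving it out ZNF329 went from 0.83 (adjusted p = 0.0444, limma) to 0.47 (adjusted p = 0.232). ZNF554 had 0.47 (adjusted p = 0.029, limma) and 0.39 (adjusted p = 0.0766). The call of each of these genes was lost without that array. The counts also depended on the setting. Without replicate 2, 58 members were lower and 14 higher, beside 11.7% and 14.8% of all probes. Without replicate 3, 35 were lower and 9 higher, beside 6.54% and 9.39%. With normexp and loess 11 were lower and 2 higher, beside 5.998% and 5.982%. With median centring 8 were lower and 13 higher, beside 4.53% and 11.1%. With the slide as a random block no member was called, beside 0.0638% of all probes lower and 0.0319% higher.

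In miR-574-3p, the miRNA the study went on to follow, 2 member probes were lower and 2 higher, beside 2.56% and 2.76% of all probes, and the median over the members was 0.01. Without the array that stands apart 15 were lower and 23 higher, beside 10.8% and 11.4%. The lower genes were ZNF585A and ZNF585B, neighbouring genes of closely related sequence, and the higher genes were ZNF134 and ZNF573. The call of ZNF134 held on leaving out each of the 3 arrays, that of ZNF585A without replicate 3, and those of ZNF585B and ZNF573 in no case. With the slide as a random block no member was called, beside 0.195% of all probes lower and 0.278% higher, so each of these calls was lost. With median centring 0 members were lower and 8 higher, beside 2.26% and 5.22%, so the calls of ZNF585A and ZNF585B were lost. With normexp and loess 5 were lower and 2 higher, beside 3.66% and 3.40%.

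ZNF134 (probe at NCBI36 chr19:62825990-62826049) had log2 ratios of 0.47, 0.36 and 0.80 in miR-574-3p, above the -0.15 to 0.17 of all 12 other arrays. The mean was 0.54 (SE 0.08, adjusted p = 0.00209, limma), and the difference from the other miRNAs was 0.56 (SE 0.09, adjusted p = 0.00779, limma). This was the 1 member that passed against the other miRNAs with all arrays in the fit, where 0.705% of all probes were lower and 0.475% higher. Its Cy3 signals were 128, 140 and 119 in miR-574-3p and 151 to 242 elsewhere, so they did not overlap, while its Cy5 signals of 177, 180 and 207 lay within 145 to 246. The Cy3 difference was -0.71 (adjusted p = 9.00e-07, limma) and the Cy5 difference -0.15 (adjusted p = 0.986). The higher ratio thus went with a lower signal in the knocked-down cells. Another ZNF134 probe (chr19:62824945-62825004) had ratios of -0.05, -0.03 and -0.09, below the -0.02 to 0.41 of all 12 other arrays. The 2 probes of this gene thus differed from the other arrays in opposite directions.

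ZNF585A had ratios of -1.09, -1.01 and -0.35, against -0.28 to 0.15 elsewhere apart from -1.26 on the array labelled miR-565 replicate 1. The mean was -0.82 (SE 0.21, adjusted p = 0.0377, limma). ZNF585B had -0.99, -0.88 and -0.51, against -0.18 to 0.21 elsewhere apart from -1.28 on the same array, and a mean of -0.79 (SE 0.19, adjusted p = 0.0325, limma). All 3 miR-574-3p arrays were thus below the others with that array set aside, with replicate 3 the least low for both genes. Cy3 signals were 144, 138 and 93.1 for ZNF585A, against 51.0 to 86.7 elsewhere, and 100, 103 and 83.1 for ZNF585B, against 37.5 to 71.1, so these did not overlap. The Cy3 differences were 0.80 for ZNF585A (adjusted p = 0.000253, limma) and 0.75 for ZNF585B (adjusted p = 1.69e-05, limma). Against the other miRNAs the ratios of the 2 genes did not pass with all arrays (adjusted p = 0.241 and 0.21, limma) and passed without the array that stands apart (-0.81, adjusted p = 0.00238, and -0.79, adjusted p = 0.000786). The 2 probes share no run of letters longer than 9 of their 60 bases, and another ZNF585A probe had -0.63, -0.33 and -0.26. A further one had 0.83, 0.56 and 0.57, with Cy3 not above background on any array. Whether either probe also takes up RNA of the other gene was not tested.

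ZNF573 had 0.30, 0.21 and 0.22, against -0.15 to 0.13 on the others, with a mean of 0.24 (adjusted p = 0.0353, limma) and a Cy3 difference of -0.16 (adjusted p = 0.0171, limma). Without the array that stands apart, 4 members were lower and 4 higher in miR-574-3p than in the other miRNAs, beside 2.94% and 2.67% of all probes (limma). They were ZNF585B, ZNF585A, ZNF780B and a dimmer probe of ZNF557 among the lower, and ZNF134, ZNF573, ZNF574 and a dimmer probe of ZNF414 among the higher. Within slide 2, the 2 miR-574-3p arrays minus the 2 miR-565 arrays gave 0.46 for ZNF134, -1.09 for ZNF585A, -0.91 for ZNF585B and 0.25 for ZNF573. Within slide 3, the 1 miR-574-3p array minus the 3 miR-629* arrays gave 0.84, -0.20, -0.50 and 0.24. The directions were alike on both slides, and the size differed most for ZNF585A. These genes were named for calls with the same sign on the 3 miR-574-3p arrays, which these slides hold. Alike directions were thus largely set by that choice and are no separate check.

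**Figure D4:**
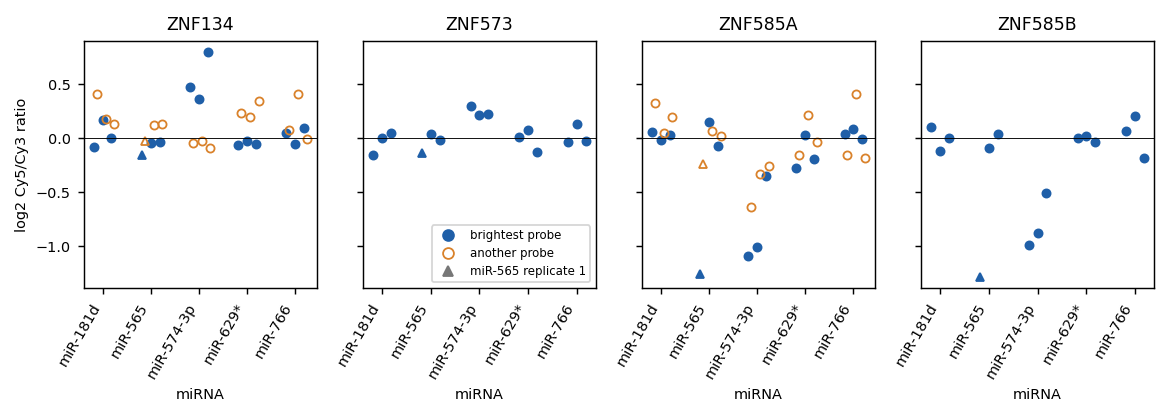
Log2 ratios of the 4 member genes called in miR-574-3p on each array, grouped by miRNA; filled blue points are the brightest probe of the gene, open orange points another tested probe, and triangles the array labelled miR-565 replicate 1. The brightest probe of ZNF134 lies at 0.36 to 0.80 in miR-574-3p and at -0.15 to 0.17 elsewhere.

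Over all members, 9 Cy3 signals were lower and 10 higher in the miR-574-3p antagomir cells than in the other antagomir cells, beside 4.53% and 4.03% of all probes, and no Cy5 signal passed (0.00% of all probes, limma), with 4 members and 1101 of all probes at an unadjusted p under 0.05. On the 14 arrays left without replicate 1 of miR-565, 6 Cy3 signals were lower and 7 higher, beside 4.03% and 3.57%, and again no Cy5 signal of a member passed, beside 0.00957% of all probes lower and 0.0223% higher. ZNF234, named after its values were seen, was among the higher, with Cy3 signals of 634, 732 and 636 against 314 to 557 on the other arrays, which do not overlap, and a difference of 0.50 (adjusted p = 3.41e-05, limma).

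In miR-766 the ratios gave 2 higher and no lower members, beside 1.47% and 0.702% of all probes. The Cy3 channel gave 11 higher and 2 lower, beside 1.88% and 2.28% of all probes (limma). Of the Cy3 signals on the 14 other arrays 10 were higher and 2 lower, beside 1.39% and 1.60%. Of the 11 higher probes 8, for 7 genes, lie in the cluster from ZNF101 to ZNF254. Of these, 3 are given here, chosen after their values were seen. ZNF430 had quantile-normalized log2 Cy3 signals of 8.85, 8.87 and 8.97 in miR-766 and 8.57 to 8.78 elsewhere, and ZNF66 had 7.57, 7.54 and 7.57 against 7.16 to 7.40. The brightest probe of ZNF254 had 9.81, 9.71 and 9.92 against 9.41 to 9.70. The miR-766 signals of these 3 genes lay above those of all other arrays, with differences of 0.23, 0.28 and 0.24 (adjusted p = 0.00589, 0.0112 and 0.0224, limma). For ZNF493 and ZNF738, also called in this cluster, they overlapped those of the other arrays at the edge. The share of all probes without such overlap is not given here. The miR-766 arrays are the only ones on slide 4, so the miRNA and the slide cannot be told apart here.

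In miR-629* 3 members were lower and 5 higher, beside 4.54% and 5.99% of all probes, with a median of 0.02. They included ZNF625 (-0.29, adjusted p = 0.041, limma), ZNF527 (0.51, adjusted p = 0.0405) and ZNF175 (0.31, adjusted p = 0.0213). ZNF175 was higher in miR-766 as well (0.33, adjusted p = 0.0373, limma). Each of these 4 calls was lost when any 1 array of its miRNA was left out. With median centring 0 members were lower and 7 higher in miR-629*, beside 5.20% and 7.45% of all probes, so the call of ZNF625 was lost. Without the array that stands apart the counts were 56 in miR-629*, 36 of them higher, beside 35.2% of all probes, and 5 lower and 25 higher in miR-766, beside 7.45% and 11.3%. The mean ratio of this brightest ZNF175 probe was positive in all 5 miRNAs, all in the same dye orientation, while the other tested probe had means of -0.49 in miR-565, -0.24 in miR-574-3p, -0.07 in miR-766, 0.01 in miR-629* and -0.00 in miR-181d, so the probes differed.

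The genes that work with the KRAB zinc finger proteins were given as a list of corepressors and chromatin factors, of which 40 probes were tested. TRIM28 was bright, with median signals of 10099 in Cy3 and 9717 in Cy5, and SETDB1 had 2637 and 2720.1 for its brighter probe. In the miR-181d ratio 5 of the 40 were lower and 1 higher (limma), beside 2.86% and 3.41% of all probes, and 16 and 5 without the array that stands apart, beside 12.8% and 15.3%. In miR-565 the counts were 3 lower and 1 higher, beside 4.56% and 8.75%, and 11 and 3 without that array, beside 7.17% and 8.71%. In miR-574-3p they were 4 and 2, beside 2.56% and 2.76%, and 7 and 3 without it, beside 10.8% and 11.4%. In miR-629* they were 5 and 3, beside 4.54% and 5.99%, and 16 called without it, 11 of them lower, beside 35.2%. In miR-766 they were 2 and 0, beside 0.702% and 1.47%, and 7 and 4 without it, beside 7.45% and 11.3%. More of the tested corepressor probes were thus called lower than higher in each of these fits. The fits share their probes and dye orientation, and those without that array reuse the other arrays, so they are not separate results. Some genes have several of these probes, so the counts are not counts of genes. None passed in limma's test of miR-181d against the other miRNAs, with or without that array, with 1 and 11 at an unadjusted p under 0.05.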

How the data were processed

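RNA of A549 cells was hybridised by the authors to Agilent whole-genome 2-colour arrays and read with Agilent Feature Extraction 9.5.3.1, per the file headers. The deposited Cy5 and Cy3 processed signals are intensities, already background-subtracted and dye-normalized by the authors' software; the deposited series table holds the log10 ratios that the authors' software wrote for each array, and was equal to them. Here control spots (1639 per array) and spots marked as outliers (2296 in all) were left out, repeated spots averaged, and log2(Cy5/Cy3) fitted in limma 3.58.1 (R 4.3.3) with 1 coefficient per miRNA over all 15 arrays (10 residual degrees of freedom), a variance trend, and Benjamini-Hochberg adjustment over 31345 probes. Channels were quantile-normalized within each dye and each miRNA compared with the mean of the other 4. The number of arrays limits the precision. Named genes, each by its brightest probe, are the members with the largest called changes in each miRNA (same sign on its 3 arrays), the 5 of lowest p where none passed, 4 strongly lit members and members with described roles; genes named on the array that stands apart were chosen after their values were seen. The members and gene lists were chosen with earlier results of these data known. On simulated data for the miR-181d ratio, run on 31345 probes, the test recovered 69% of probes changed by log2 1 and 94% of those changed by log2 2, with 9 false calls. The simulated noise was independent between arrays, with no slide effect and no array that stands apart. These rates therefore need not hold for the real arrays. Alternatives were normexp with loess, median centring, other filters, the slide or replicate number as a block, and leaving out arrays.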

Additional observations from a re-analysis of the deposited data

Results flagged for a closer look

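Differences between miRNAs, by the test of the difference itself (limma), included the following. In the ratios, the brightest probe of ZNF134 in miR-574-3p was 0.56 above the mean of the other miRNAs (SE 0.09, adjusted p = 0.00779), with all 3 arrays above the 12 others. Another ZNF134 probe had all 3 arrays below the 12 others. In Cy3, the knocked-down cells, 9 member probes were lower and 10 higher in miR-574-3p, beside 4.53% and 4.03% of all probes, and 2 lower and 11 higher in miR-766, beside 2.28% and 1.88%. Among them, ZNF134 (-0.71) and ZNF573 (-0.16) were lower in miR-574-3p, and ZNF585A (0.80), ZNF585B (0.75) and ZNF234 (0.50) were higher. In miR-565 the Cy3 signal of ZNF134 was 0.25 above the mean of the others, which holds the low miR-574-3p arrays: the log2 signals were 7.67 to 7.79 in miR-565, 6.81 to 7.10 in miR-574-3p and 7.47 to 7.75 in the other 3 miRNAs, which overlap those of miR-565. This call was lost without the array labelled miR-565 replicate 1. In miR-766, among others, ZNF430 (0.23), ZNF66 (0.28) and ZNF254 (0.24) were higher. In the miR-181d antagomir cells the Cy3 signal of ZNF580 was 0.19 above the others (SE 0.04, adjusted p = 0.0271), and this call was lost without miR-181d replicate 2 or 3.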

How the results depend on the processing

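The labels give replicate numbers 1 to 3 for each miRNA. Same-numbered arrays of different miRNAs deviated together in some pairs only (30 pairs, r -0.39 to 0.51, median 0.06, over 0.1 in 13). Differently numbered arrays had a median of -0.05 (60 pairs, r -0.58 to 0.50, over 0.1 in 16). Of the 15 arrays, 6 correlated best with an array of their own number, and the numbers were not used to pair arrays in the main fit. With the replicate block, 6 members (3.99% of all probes) instead of 1 were called in the miR-181d Cy3 channel and 1 (1.43%) instead of 2 in the miR-766 ratio; the other counts stayed within 1.5 times. With the slide as a random block the members called were 71 in miR-181d Cy3, 99 in Cy5 (0 without it), 96 higher and 18 lower in miR-181d minus the others, 7 higher in the miR-181d ratio (2.75% of all probes; median 0.39), and 0 in the ratios of each of the other miRNAs. With the slide block but without the array labelled miR-565 replicate 1, a setting added after seeing the data, they were 12 higher and 16 lower in miR-181d minus the others, 58 higher and 39 lower in miR-181d (24.9% and 21.7% of all probes), 57 in miR-565 (30.2%), 55 in miR-574-3p (31.3%), 112 in miR-629* (56.8%) and 77 in miR-766 (38.4%). Without that array and without a block they were 33 higher and 17 lower in miR-181d, 38 in miR-574-3p, 56 in miR-629* and 30 in miR-766. With each miRNA fitted on its own arrays they were 8 higher and 4 lower in miR-181d (4.67% and 4.46% of all probes), 0 in miR-565 (0%), 35 in miR-574-3p (25.5%) and 31 in miR-629* (23.0%); this setting has no value for a difference between miRNAs. With no filter on dim probes they were 35 lower in miR-181d (13.0% of all probes; median -0.017), 10 in miR-565 (7.88%), 5 in miR-629* (6.90%) and 4 in miR-766 (1.83%). With normexp and loess they were 2 lower in miR-181d (5.83%; median -0.00062), 7 in miR-574-3p (7.06%) and 1 in miR-766 (3.33%), and with normexp signals 0 in miR-181d Cy3 (0.928%). With median centring they were 0 lower and 8 higher in miR-574-3p (2.26% and 5.22%), and 0 lower and 7 higher in miR-629* (5.20% and 7.45%). The lower calls of ZNF585A, ZNF585B and ZNF625 were thus lost in this setting. It gave 4 called members in miR-766 (3.76%) and a miR-181d median of 0.063. With both channels above background they were 0 lower in miR-181d (3.02%) and 1 in miR-766 (2.10%). Leaving out 1 replicate gave 0 to 1 in miR-181d Cy3, 0 higher and 0 to 2 lower in miR-181d, 21 to 72 in miR-565 (15.9% to 26.5% of all probes), 1 to 2 in miR-574-3p, 0 to 1 in miR-629* and 0 in miR-766. On the array that stands apart the member median was -0.47 with both channels above background on all arrays, -0.81 with median centring, -0.24 with no filter and -0.29 with normexp and loess, and the count lowest of the 15 arrays was 114 to 162. Over 17 named member results and 253 alternatives, 166 kept their side of the threshold, 87 no longer passed it and 0 reversed. The cause of these changes was not tested.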
